A study of Mus musculus with 24 samples.

Results

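Tunicamycin was compared with Sal003 in macrophages that were polarized with IL-4/IL-13, to describe what endoplasmic reticulum (ER) stress adds to, or changes from, inhibition of eIF2α dephosphorylation. The libraries were chosen from the deposited gene count table by treatment label, as the 4 tunicamycin and the 4 Sal003 libraries, and they make 8 of the 24 libraries in the series. Bone marrow cells of 9-week-old female wild-type C57BL/6J mice were differentiated with M-CSF for 6 days and stimulated for 24 h with IL-13 and IL-4, each at 20 ng/ml. Tunicamycin (5 µg/ml) or Sal003 (10 µM) was given from 1 h before the cytokines. The same 4 mice, numbered 1, 2, 4 and 5, gave 1 library for each treatment, and their 4 libraries with IL-4/IL-13 alone and 4 naive libraries without cytokine serve as reference levels. Values listed for a treatment are always in the order mouse 1, 2, 4 and 5.

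Tunicamycin inhibits DPAGT1, the enzyme that starts the lipid-linked glycan used for N-glycosylation, so that unfolded glycoproteins build up in the ER. ER stress is sensed by IRE1, PERK and ATF6, which raise chaperones, ER-associated degradation and, through phosphorylation of eIF2α by PERK, the integrated stress response (ISR) with its transcription factor ATF4. Sal003 blocks the phosphatase complexes that remove phosphate from eIF2α and so acts on the ISR without an unfolded protein load.

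Reads counted on genes numbered 18551911, 20316948, 17230982 and 18782815 in the tunicamycin libraries and 20298346, 18674060, 18876404 and 20547790 in the Sal003 libraries, so the depths of the treatments overlapped. Levels are given as CPM, counts scaled to library size after TMM normalization, and each difference is the log2 of tunicamycin over Sal003 with its standard error (SE) and an adjusted *P* from edgeR's quasi-likelihood test. A gene was called higher or lower at an adjusted *P* under 0.05 with at least a 2.5-fold difference. Each mouse gave 1 library per treatment, so the spread covers 4 animals. In bulk RNA, fewer cells of a kind and less RNA per cell cannot be told apart. Each drug was used only at the dose given above. ISR genes themselves differed, with *Atf4* 5.30-fold and *Trib3* 24.7-fold higher with tunicamycin. The parts of ER stress and of a stronger ISR in a difference were therefore not tested and cannot be told apart here. Intervals and floors given for genes near 0 cover counting error only.

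The libraries carried macrophage transcripts. Of 14 macrophage markers, all were tested, and their summed level was 17427, 19084, 18687 and 18201 CPM with tunicamycin and 15731, 15806, 17338 and 15722 CPM with Sal003, with *Lyz2* the most abundant. The groups did not overlap in this sum. Among the markers 3 were called higher with tunicamycin, namely *Adgre1*, *Cd14* and *Cx3cr1*, and 4 were called lower, among them *Csf1r*, *Cd68* and *Mertk*, with a list median of −0.49, beside 7.80% and 11.3% of all genes. *Adgre1*, which encodes F4/80, lay between 6053 and 7296 CPM with tunicamycin and between 1498 and 1692 CPM with Sal003, a difference of 2.04. *Csf1r*, the M-CSF receptor, lay between 751 and 855 CPM with tunicamycin and between 3320 and 3652 CPM with Sal003, a difference of −2.08. *Cd163* was under 1 CPM in all 8 libraries.

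Of 13679 genes tested, 1067 (7.80%) were called higher and 1543 (11.3%) lower with tunicamycin than with Sal003, and 11069 were called in neither direction. The median difference over all genes was −0.01. Against IL-4/IL-13 alone, tunicamycin called 1171 genes higher (8.56%) and 1917 lower (14.0%), and Sal003 called 366 higher (2.68%) and 689 lower (5.04%). These last comparisons share the IL-4/IL-13 libraries and are given side by side only as values.

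Many genes that fold proteins in the ER were called higher with tunicamycin. Of 24 ER chaperones and folding enzymes, 19 were called higher and 0 lower, against 7.80% and 11.3% of all genes, and the list median was 1.95. The other 5, *Sdf2*, *Sil1*, *Canx*, *Txndc5* and *Fkbp2*, had differences from −0.08 to 1.27. Against IL-4/IL-13 alone, tunicamycin called 22 of the 24 higher (8.56% of all genes), whereas Sal003 called 0 higher and 0 lower (2.68% and 5.04% of all genes), with a median of 0.10. At an adjusted *P* under 0.05 without a fold minimum, edgeR put 11 of the 24 on the higher and 6 on the lower side for Sal003, beside 3548 and 3369 of all 13679 genes.

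*Hspa5* (ENSMUSG00000026864, GRCm39 chromosome 2, 34661982 to 34668880) encodes BiP, the ER Hsp70 chaperone that holds the stress sensors inactive. It was at 11562, 12836, 13209 and 11861 CPM with tunicamycin and at 1135, 1139, 1103 and 1144 CPM with Sal003. Every tunicamycin library was far above every Sal003 library, and the difference was 3.45 ± 0.073 (SE, adjusted *P* = 1.05e-22), a 10.9-fold change. Sal003 libraries lay within the range of IL-4/IL-13 alone, which was 986 to 1196 CPM, at a difference of 0.07 (adjusted *P* = 0.374). Exons of *Rabepk* on the opposite strand cover 44.2% of the *Hspa5* exon length. How reads in the shared stretch were counted is unknown, because the strand setting of the counting was not stated.

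*Dnajb9* (ENSMUSG00000014905, chromosome 12, 44252341 to 44257171), a BiP cochaperone, was at 606, 619, 648 and 609 CPM with tunicamycin and at 38.6, 36.9, 39.8 and 38.9 CPM with Sal003. Libraries within a treatment were close together and the treatments were far apart, at 4.01 ± 0.058 (adjusted *P* = 1.62e-25). *Creld2*, an ER protein that is secreted under ER stress, had means of 657 ± 12.8 (SD) and 54.2 ± 2.15 CPM, a difference of 3.60. *Hyou1*, the nucleotide exchange factor of BiP, had means of 2287 ± 123 and 204 ± 6.12 CPM, a difference of 3.49. Both genes were higher in 4 of 4 mice. Protein disulfide isomerases followed, with *Pdia4* at 2.82, *Pdia6* at 2.29 and *Pdia3* at 1.91.

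Of 18 genes of ER-associated degradation, which extracts misfolded proteins for the proteasome, 7 were called higher and 0 lower (7.80% and 11.3% of all genes), with a median of 1.08. *Herpud1* (ENSMUSG00000031770, chromosome 8, 95113022 to 95123141), a scaffold of the HRD1 ubiquitin ligase complex, was at 1148, 1196, 1154 and 1147 CPM with tunicamycin and at 32.8, 33.9, 38.6 and 31.1 CPM with Sal003. The Sal003 libraries were also below IL-4/IL-13 alone, which lay between 67.9 and 72.1 CPM, so the treatments stood on opposite sides of that level. The difference between treatments was 5.09 ± 0.083 (adjusted *P* = 7.95e-25), and that of Sal003 from IL-4/IL-13 alone was −1.04, short of the 2.5-fold threshold.

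*Derl3* (ENSMUSG00000009092, chromosome 10, 75729215 to 75731775), a derlin of the ER retrotranslocation channel, was at 183, 186, 204 and 180 CPM with tunicamycin and at 0.467, 0.733, 0 and 0.824 CPM with Sal003. Here Sal003 was called lower than IL-4/IL-13 alone (mean 1.54 CPM, difference −1.58, adjusted *P* = 0.00557) and tunicamycin higher (6.93, adjusted *P* = 3.47e-20). The difference between treatments was 8.50 ± 0.24 (adjusted *P* = 1.76e-20). *Sel1l*, the partner of the HRD1 ligase, had means of 1392 ± 77.6 and 264 ± 13.8 CPM, a difference of 2.40. *Syvn1*, which encodes HRD1 itself, differed by 2.25, and *Derl1* by 2.28.

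Of 9 genes for stress sensors and their transcription factors, 3 were called higher and 0 lower (7.80% and 11.3% of all genes), with a median of 0.64. *Atf6* differed by 1.55 (adjusted *P* = 6.13e-14), *Creb3l2*, a membrane-bound relative of ATF6, by 1.48, and *Ern1*, which encodes IRE1α, by 1.34 at 2.53-fold. *Ern1* lies close to the fold threshold and was not called, at 1.31, when only genes with at least 10 counts in every library were tested.

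*Xbp1* (ENSMUSG00000020484, chromosome 11, 5470606 to 5483027), whose mRNA is spliced by IRE1, was at 290, 301, 292 and 300 CPM with tunicamycin and at 205, 205, 208 and 209 CPM with Sal003. The groups did not overlap, but at 1.43-fold (0.52 ± 0.047, adjusted *P* = 3.69e-10) the gene was not called. Counts per gene do not separate the spliced from the unspliced form, and opposite-strand exons cover 22.0% of the gene. *Eif2ak3* (ENSMUSG00000031668, chromosome 6, 70821461 to 70882235), which encodes PERK, was at 65.5, 61.2, 65.5 and 64.3 CPM with tunicamycin and at 37.7, 40.2, 40.3 and 36.7 CPM with Sal003. It too was separate between treatments without reaching 2.5-fold (0.73 ± 0.075, adjusted *P* = 3.92e-09).

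The gene for the target of tunicamycin and part of its pathway were higher with the drug. Of 33 genes for N-glycan precursors, oligosaccharyltransferase and hexosamine synthesis, 13 were called higher (7.80% of all genes), 0 lower and 20 in neither direction, with a median of 0.88. *Dpagt1* (ENSMUSG00000032123, chromosome 9, 44237316 to 44245247) was at 185, 190, 186 and 178 CPM with tunicamycin and at 67.0, 60.9, 64.3 and 57.7 CPM with Sal003. All tunicamycin libraries were above all Sal003 libraries (1.56 ± 0.055, adjusted *P* = 1.80e-18), and Sal003 overlapped IL-4/IL-13 alone.

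Hexosamine synthesis, which makes the UDP-GlcNAc that DPAGT1 uses, was higher for the 4 enzymes named here. *Gfpt1*, the rate-limiting enzyme, had means of 438 ± 24.7 and 49.6 ± 1.63 CPM (3.14), *Gnpnat1* 67.2 ± 1.92 and 9.88 ± 1.02 CPM (2.76), and *Uap1* 127 ± 1.11 and 23.2 ± 0.42 CPM (2.46). *Pgm3* differed by 1.78. Exons of opposite-strand genes cover 68.0% of *Gnpnat1*, so that its reads are not assigned with certainty. Among oligosaccharyltransferase genes, *Ostc* differed by 2.06 and *Stt3a* by 1.84, while *Stt3b*, the subunit that acts after translation, was not called at 0.28.

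Of 32 genes of the ER translocon, signal peptidase and COPII coat, 16 were called higher and 0 lower (7.80% and 11.3% of all genes), with a median of 1.34. *Sec24d*, a cargo adaptor of the COPII coat, had means of 413 ± 4.09 and 71.0 ± 3.43 CPM and differed by 2.54, while its relatives *Sec24a*, *Sec24b* and *Sec24c* were not called at 0.99, −0.32 and 0.44. *Sec61g*, a channel subunit, differed by 2.15 at means of 6.25 ± 0.422 and 1.4 ± 0.147 CPM, and 14.1% of its 32-base words are shared with other genes. *Ssr3*, of the translocon-associated complex, had means of 1593 ± 30.8 and 400 ± 7.91 CPM and differed by 2.00. Sal003 called 0 of the 32 higher and 0 lower than IL-4/IL-13 alone (2.68% and 5.04% of all genes). Without a fold minimum, 15 were on the higher and 2 on the lower side at an adjusted *P* under 0.05 (3548 and 3369 of all 13679 genes).

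IRE1 also cleaves certain mRNAs. Of 5 mRNAs reported as IRE1-cleaved, 3 were tested, 2 were called lower with tunicamycin and 0 higher (11.3% and 7.80% of all genes), with a median of −1.60, and 1 was called lower with at least 10 counts in every library. *Hgsnat*, a lysosomal acetyltransferase, was at 73.5, 81.1, 79.0 and 80.0 CPM with tunicamycin and at 240, 247, 229 and 232 CPM with Sal003, a difference of −1.60 (adjusted *P* = 8.05e-18). *Col6a1*, a collagen VI chain, was at 1.08, 0.952, 0.681 and 0.153 CPM with tunicamycin and at 4.15, 2.59, 2.38 and 0.721 CPM with Sal003. For *Col6a1* the groups overlapped and mouse 5 was lowest in both. Within mice 1, 2, 4 and 5 the differences were −1.85, −1.35, −1.66 and −1.68. The call (−1.76, adjusted *P* = 0.0219) was lost without mouse 1, without mouse 2 or without mouse 4. The difference was then −1.60, −1.92 and −1.76, at an adjusted *P* of 0.0828, 0.0654 and 0.0841. The summed fibroblast markers were likewise lower with tunicamycin in each mouse and lowest in mouse 5, and their part in *Col6a1* was not tested.

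**Figure D1:**
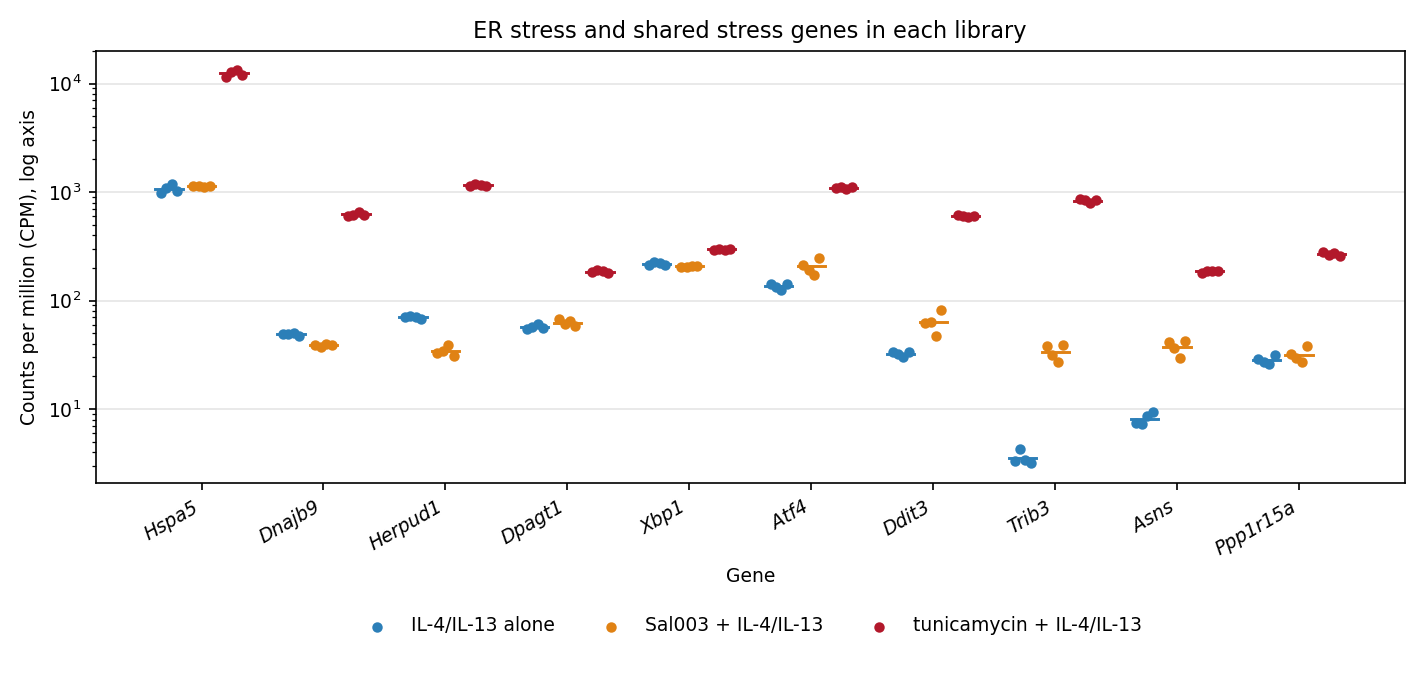
Levels of 10 genes in CPM on a log axis, with points for mice 1, 2, 4 and 5 from left to right and a line at the mean, for IL-4/IL-13 alone, Sal003 and tunicamycin. *Hspa5* lies near 1130 CPM with Sal003 and near 12367 CPM with tunicamycin, whereas *Trib3* steps from a mean of 3.55 CPM in IL-4/IL-13 alone to 33.8 CPM with Sal003 and 835 CPM with tunicamycin.

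Many ISR genes were higher with tunicamycin than with Sal003, among them some that Sal003 itself raised. Of 18 ISR transcription factors and effectors, 16 were tested, 10 were called higher and 0 lower (7.80% and 11.3% of all genes), and the median was 2.35. Against IL-4/IL-13 alone, tunicamycin called 11 higher and 1 lower (8.56% and 14.0% of all genes, list median 2.73). Sal003 called 4 higher and 0 lower (2.68% and 5.04% of all genes, list median 0.46). Without a fold minimum, 11 were on the higher and 3 on the lower side for Sal003 at an adjusted *P* under 0.05 (3548 and 3369 of all 13679 genes). *Atf4* (ENSMUSG00000042406, chromosome 15, 80139372 to 80141745), the central factor of the response, was at 1094, 1111, 1066 and 1104 CPM with tunicamycin and at 214, 193, 173 and 245 CPM with Sal003. The tunicamycin libraries agreed closely while the Sal003 libraries ranged from mouse 4 at the bottom to mouse 5 at the top, and the groups did not overlap (2.41 ± 0.076, adjusted *P* = 2.09e-19). All Sal003 libraries were above those of IL-4/IL-13 alone (124 to 143 CPM), at a difference of 0.61 that was not called.

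*Ddit3* (ENSMUSG00000025408, chromosome 10, 127124268 to 127132163), which encodes the stress factor CHOP, was at 612, 598, 590 and 600 CPM with tunicamycin and at 62.4, 63.2, 47.0 and 80.9 CPM with Sal003. The order of the Sal003 mice was again lowest in mouse 4 and highest in mouse 5, and the difference was 3.24 ± 0.11 (adjusted *P* = 7.40e-19). All Sal003 libraries were above those of IL-4/IL-13 alone (30.2 to 33.8 CPM), at a difference of 0.97 that was not called. Opposite-strand exons cover 82.4% of the *Ddit3* exon length, so its count is uncertain. *Trib3* (ENSMUSG00000032715, chromosome 2, 152179337 to 152191958), a pseudokinase that restrains ATF4, was at 856, 848, 793 and 842 CPM with tunicamycin and at 38.2, 31.4, 27.2 and 38.5 CPM with Sal003. Its level was 24.7-fold apart between treatments (4.62 ± 0.085, adjusted *P* = 6.90e-24), and Sal003 was itself called higher than IL-4/IL-13 alone at 3.24.

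*Chac1*, which degrades glutathione, was at 44.2, 42.2, 42.7 and 43.2 CPM with tunicamycin and at 2.49, 2.26, 1.36 and 2.57 CPM with Sal003, a difference of 4.30 ± 0.11 (adjusted *P* = 2.93e-21). *Gdf15*, a secreted stress cytokine, had means of 138 ± 7.78 and 10.2 ± 2.01 CPM, a difference of 3.76. Sal003 was called higher than IL-4/IL-13 alone for both, at 2.65 and 1.98. *Nupr1*, *Gadd45a*, *Jdp2* and *Sesn2* differed by 3.74, 3.40, 2.91 and 2.30, and for these 4 Sal003 was not called against IL-4/IL-13 alone. *Atf5*, an ATF4 relative, lay between 404 and 427 CPM with tunicamycin and between 211 and 238 CPM with Sal003, a difference of 0.88 that was not called, and Sal003 was called higher than IL-4/IL-13 alone at 1.66. *Atf3* lay between 285 and 332 CPM with tunicamycin and between 625 and 673 CPM with Sal003, at −1.06 also not called.

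Of 17 genes for eIF2 and its regulators, 1 was called higher and 1 lower, with a median of 0.01, beside 7.80% and 11.3% of all genes. The higher count was 2 without mouse 1 or without mouse 5. *Ppp1r15a* (ENSMUSG00000040435, chromosome 7, 45172340 to 45175692) encodes GADD34, the inducible subunit of the eIF2α phosphatase that Sal003 acts on. It was at 282, 263, 273 and 259 CPM with tunicamycin and at 31.8, 29.7, 27.2 and 37.7 CPM with Sal003, while IL-4/IL-13 alone lay between 26.2 and 31.7 CPM. The tunicamycin libraries stood apart (3.09 ± 0.089, adjusted *P* = 4.04e-20) and the Sal003 libraries overlapped IL-4/IL-13 alone (0.15, adjusted *P* = 0.173). *Ppp1r15b*, the constitutive subunit, lay between 137 and 147 CPM with tunicamycin and between 215 and 227 CPM with Sal003 and was not called at −0.63.

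*Eif2ak2*, which encodes the RNA-activated eIF2α kinase PKR and is induced by interferon, was at 31.8, 33.9, 32.2 and 28.9 CPM with tunicamycin and at 108, 117, 93.8 and 124 CPM with Sal003. The tunicamycin libraries were all lower (−1.80 ± 0.13, adjusted *P* = 2.03e-12). IL-4/IL-13 alone lay between them, at 43.8 to 47.0 CPM, and neither treatment was called against it, at −0.52 for tunicamycin and 1.28 for Sal003.

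Of 15 genes for amino acid and folate-linked synthesis, 14 were tested, 10 were called higher and 0 lower (7.80% and 11.3% of all genes), with a median of 1.8. *Asns* (ENSMUSG00000029752, chromosome 6, 7671667 to 7728461), asparagine synthetase, was at 180, 188, 186 and 187 CPM with tunicamycin and at 41.1, 36.4, 29.8 and 42.7 CPM with Sal003. The treatments did not overlap (2.30 ± 0.086, adjusted *P* = 6.10e-18), and both were called above IL-4/IL-13 alone, whose mean was 8.15 CPM, at 4.51 and 2.21. *Phgdh*, the entry enzyme of serine synthesis, had the same arrangement, at 3.97 and 2.12 against IL-4/IL-13 alone and 1.85 between treatments.

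*Pycr1*, the last enzyme of proline synthesis, was at 12.4, 11.6, 12.1 and 12.6 CPM with tunicamycin and at 0.363, 0.395, 0.226 and 0.463 CPM with Sal003, a difference of 5.04 ± 0.24 (adjusted *P* = 1.07e-15). *Aldh1l2*, a mitochondrial formyl-folate dehydrogenase, had means of 31.6 ± 3.25 and 1.00 ± 0.162 CPM (4.97), and *Aldh18a1*, the entry enzyme of proline synthesis, 142 ± 3.18 and 16.5 ± 1.31 CPM (3.10). Sal003 was not called against IL-4/IL-13 alone for any of the 3, at 0.27, 1.10 and 0.80. *Psat1*, of serine synthesis, differed by 1.52 in another arrangement, in that Sal003 lay between 11.2 and 17.2 CPM, below IL-4/IL-13 alone at 37.1 to 40.4 CPM (−1.40, called lower), while tunicamycin lay between 40.4 and 44.1 CPM.

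Part of the amino acid transporters and tRNA synthetases were also higher with tunicamycin. Of 12 transporters 11 were tested, 7 were called higher and 0 lower (7.80% and 11.3% of all genes), with a median of 1.97. *Slc7a5*, the light chain of the large neutral amino acid transporter, was at 222, 228, 229 and 210 CPM with tunicamycin and at 10.8, 8.06, 8.32 and 11.2 CPM with Sal003, a difference of 4.53 ± 0.085 (adjusted *P* = 9.68e-24). *Slc3a2*, its heavy chain, lay between 2790 and 3068 CPM with tunicamycin and between 434 and 596 CPM with Sal003 (2.5), and here Sal003 was called higher than IL-4/IL-13 alone at 1.35. *Slc1a4*, which carries alanine and serine, differed by 3.78, and *Slc6a9*, which carries glycine, by 3.38, with opposite-strand exons over 33.8% of *Slc6a9*. Of 20 cytosolic tRNA synthetases, 10 were called higher and 0 lower (again beside 7.80% and 11.3%), with a median of 1.26. *Wars1* differed by 1.99, *Eprs1* by 1.92 and *Aars1* by 1.91 (12.6% of 32-base words shared with other genes), whereas *Qars1* was not called, at −0.01. Sal003 called 0 of the 20 higher and 0 lower than IL-4/IL-13 alone at 2.5-fold (2.68% and 5.04% of all genes), and *Aars1* came closest at 1.10. Without a fold minimum, 17 were on the higher and 1 on the lower side at an adjusted *P* under 0.05 (3548 and 3369 of all 13679 genes).

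Other stress programs listed here had 2 called members each, where 7.80% of all genes were called higher and 11.3% lower. Of 15 mitochondrial chaperones and proteases, 2 were called higher and 0 lower, with a median of 0.39, namely *Hspa9*, the mitochondrial Hsp70, at 1.60 and *Lonp1*, the matrix protease, at 1.45. Of 14 antioxidant genes controlled by NRF2, 2 were called higher and 0 lower, with a median of 0.64. *Gsr*, glutathione reductase, had means of 182 ± 8.87 and 47.2 ± 4.29 CPM (1.94), with IL-4/IL-13 alone between them at 84.0 CPM. *Osgin1* had means of 20.5 ± 1.96 and 5.42 ± 0.480 CPM (1.92), and there tunicamycin overlapped IL-4/IL-13 alone while Sal003 was called lower at −2.14. Of 16 cytosolic heat shock genes 14 were tested, 0 were called higher and 2 lower, with a median of −0.42. These were *Hspa1a* at −2.28 and *Hspa1b* at −2.12, which share most of their sequence and cannot be counted apart with certainty.

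Of 19 genes of the BCL-2 family and stress-induced death, 17 were tested, 1 was called higher and 1 lower, with a median of −0.13, beside 7.80% and 11.3% of all genes. The lower count was 2 with DESeq2, with other normalizations, with the 8 libraries alone, with at least 10 counts in every library and without mouse 4. *Bcl2a1b*, an antiapoptotic member, was at 25.8, 29.1, 19.0 and 24.9 CPM with tunicamycin and at 5.19, 5.19, 3.28 and 4.48 CPM with Sal003, a difference of 2.44 (adjusted *P* = 2.16e-13). It shares 85.4% of its 32-base words with other genes, mostly *Bcl2a1d*, and exons of another gene on the same strand cover 48.5% of it, so it is uncertain. *Bcl2l11*, which encodes the proapoptotic BIM, was at 70.7, 60.6, 73.5 and 72.0 CPM with tunicamycin and at 318, 334, 322 and 340 CPM with Sal003, a difference of −2.25 (adjusted *P* = 3.60e-21). *Bbc3* and *Pmaip1*, other proapoptotic members, were not called at 0.24 and −0.04.

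**Figure D2:**
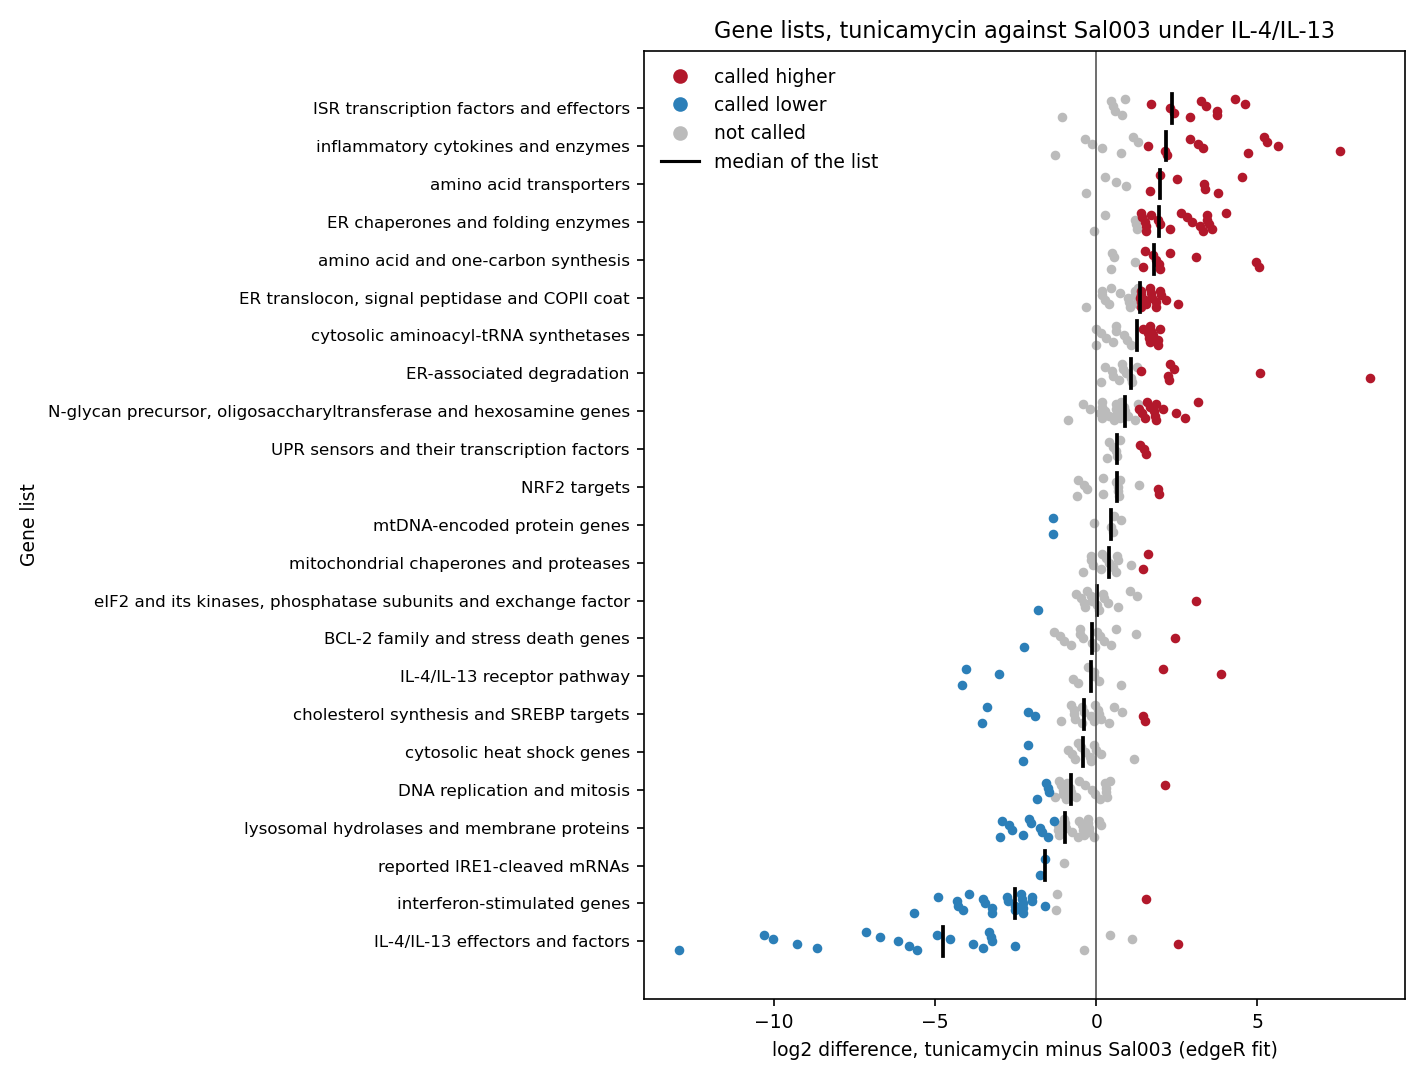
Log2 difference of tunicamycin over Sal003 for each tested member of 23 gene lists, with red points for genes called higher, blue for genes called lower, gray for genes not called and a black bar at each list median. Lists run in order of their median, from −4.76 for IL-4/IL-13 markers to 2.35 for ISR factors, and the median of all genes tested is −0.01.

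Promoter sequence was examined for elements known to bind the transcription factors of these responses, since the called members of the ER lists were all higher with tunicamycin. The 250 bases before each gene start were taken from RefSeq (GRCm38.p6), with a promoter for 9962 of the 13679 genes tested, and were read on both strands. The ER stress response element (ERSE, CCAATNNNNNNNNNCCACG) was in 17 of the 9962 promoters (0.171%). It was in 8 of 21 ER chaperone promoters (38.1%), in 2 of 13 degradation promoters (15.4%), in 1 of 27 glycosylation promoters (3.70%), in 0 of 26 translocon and 0 of 8 sensor promoters, in 11 of the 737 promoters of genes called higher (1.49%) and in 0 of the 1069 of genes called lower, which allows a share of up to 0.358% (95% Wilson interval). In the sequences shown, capitals mark the element, and those on the opposite strand read as its reverse complement. They belong to called genes, and the element starts 65 bases before the start of *Hspa5*, 105 before that of *Dnajc3*, 44 before that of *Syvn1* and 156 before that of *Derl3*. *Canx*, which was not called at 1.21, also holds the element, 145 bases before its start. A match describes letters and is neither a site nor a cause, and no match means only that these letters are not in the window.
Hspa5: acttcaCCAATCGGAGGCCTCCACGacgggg
Dnajc3: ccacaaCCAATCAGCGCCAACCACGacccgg
Syvn1: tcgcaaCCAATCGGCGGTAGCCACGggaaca
Derl3: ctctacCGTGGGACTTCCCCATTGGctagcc

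The C/EBP-ATF element (TGATGNAA), which ATF4 and CHOP can bind, was in 252 of the 9962 promoters (2.53%), in 32 of those of genes called higher (4.34%) and in 34 of those of genes called lower (3.18%). Its share was 5 of 16 for ISR factors (31.2%), 3 of 12 for amino acid synthesis (25%), 3 of 13 for tRNA synthetases (23.1%) and 1 of 7 for transporters (14.3%). Over the whole 300-base entry, these became 6 of 16 (37.5%), 3 of 12 (25%), 5 of 13 (38.5%) and 2 of 7 (28.6%). The short element is common, and *Atf3*, which was not called higher, also holds it. Capitals mark the element or its reverse complement in 5 genes called higher with tunicamycin. It starts 193 bases before the start of *Chac1*, 110 before that of *Nupr1*, 23 before that of *Asns*, 103 before that of *Pycr1* and 112 before that of *Herpud1*.
Chac1: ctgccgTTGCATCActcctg
Nupr1: gccagaTTGCATCAgacagg
Asns: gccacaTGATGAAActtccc
Pycr1: tgtgtaTGATGCAAtgcaca
Herpud1: ggcgggTTGCATCAgcccgc

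Many genes that IL-4/IL-13 induced were called lower with tunicamycin than with Sal003. Their share is given beside that of all genes, and the difference between the shares was not tested. IL-4/IL-13 alone called 737 genes higher (5.39%) and 832 lower (6.08%) than in naive macrophages, a comparison that uses none of the 8 libraries. Of the 737 induced genes, 401 (54.4%) were called lower and 42 (5.70%) higher with tunicamycin than with Sal003, against 11.3% and 7.80% of all genes, and their median was −1.57. Tunicamycin called 596 of them (80.9%) lower than IL-4/IL-13 alone, beside 14.0% of all genes, with a median of −3.20. Sal003 called 376 (51.0%) lower, beside 5.04% of all genes, with a median of −1.36. Induced genes are those with high levels in the IL-4/IL-13 libraries by definition, so lower values against those same libraries carry some regression to the mean. Of the 832 repressed genes, 245 (29.4%) were called higher and 203 (24.4%) lower with tunicamycin than with Sal003, with a median of 0.19. With at least 10 counts in every library, 171 induced genes were called lower and 25 higher, and 131 repressed genes higher and 129 lower, beside 884 lower and 678 higher of all 11277 genes then tested. How many induced or repressed genes were left under that filter was not counted.

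Of 23 IL-4/IL-13 effectors and factors, 22 were tested, 1 was called higher and 18 lower (7.80% and 11.3% of all genes), with a median of −4.76, or −4.34 with the 2 genes that had no counts with tunicamycin set to their bound. With at least 10 counts in every library, 11 were called lower. Against IL-4/IL-13 alone, Sal003 called 10 of the 22 lower and 0 higher (5.04% and 2.68% of all genes), with a median of −0.98. *Retnla* (ENSMUSG00000061100, chromosome 16, 48662895 to 48664824), which encodes the secreted protein RELMα, was at 0, 0.0476, 0 and 0 CPM with tunicamycin, a total of 1 count, and at 150, 141, 259 and 67.9 CPM with Sal003. The ratio was 11846, with a 95% counting interval of 2126 to 467874, and Sal003 was itself called lower than IL-4/IL-13 alone, whose mean was 7754 CPM, at −5.65.

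*Chil3* (ENSMUSG00000040809, chromosome 3, 106054870 to 106074880), a chitinase-like protein, was at 1.59, 1.81, 2.67 and 0.866 CPM with tunicamycin and at 2547, 2181, 2615 and 1403 CPM with Sal003. Sal003 left *Chil3* at −0.70 from IL-4/IL-13 alone, which was not called, so nearly the full distance lay between the treatments (−10.31 ± 0.31, adjusted *P* = 1.15e-19). It shares 35.9% of its 32-base words with other genes, mostly *Chil4*. *Irf4* (ENSMUSG00000021356, chromosome 13, 30933209 to 30950959), a transcription factor of alternative activation, was at 1.13, 1.29, 1.87 and 2.04 CPM with tunicamycin and at 88.5, 85.9, 110 and 71.7 CPM with Sal003. All tunicamycin values were below the naive range of 13.1 to 14.3 CPM, and the difference was −5.82 ± 0.14 (adjusted *P* = 2.14e-21). Sal003 was itself called lower than IL-4/IL-13 alone for *Irf4*, at −1.79.

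*Egr2* (ENSMUSG00000037868, chromosome 10, 67371305 to 67378018), an early transcription factor of the IL-4 response, was at 4.16, 2.86, 4.08 and 2.90 CPM with tunicamycin and at 249, 245, 263 and 233 CPM with Sal003. Sal003 was at −0.73 from IL-4/IL-13 alone, not called, and the treatments differed by −6.15 ± 0.091 (adjusted *P* = 1.63e-25). *Mrc1* (ENSMUSG00000026712, chromosome 2, 14234151 to 14336926), the mannose receptor CD206, was at 75.1, 75.4, 85.9 and 76.4 CPM with tunicamycin and at 748, 803, 850 and 757 CPM with Sal003. The Sal003 values were above all 4 libraries of IL-4/IL-13 alone (558 to 736 CPM, 0.32, not called), and tunicamycin was 10.1-fold below Sal003 (−3.34 ± 0.097, adjusted *P* = 4.56e-20).

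Several further markers stood at or somewhat above the level of IL-4/IL-13 alone with Sal003 and far below it with tunicamycin. *Clec7a*, the β-glucan receptor Dectin-1, lay between 23.2 and 31.2 CPM with tunicamycin, between 1277 and 1328 CPM with Sal003 and between 1025 and 1150 CPM with IL-4/IL-13 alone. *Pdcd1lg2*, which encodes PD-L2, lay between 0.359 and 0.567, between 64.5 and 71.0, and between 56.9 and 66.8 CPM in the same order. *Tgm2*, transglutaminase 2, lay between 20.0 and 26.7, between 305 and 370, and between 287 and 321 CPM. Their differences between treatments were −5.56, −7.16 and −3.84, and none of the 3 was called for Sal003 against IL-4/IL-13 alone. *Mgl2*, a lectin, and *Ccl24*, a chemokine, stepped down with both drugs, at −2.88 and −2.84 for Sal003 against IL-4/IL-13 alone and a further −4.55 and −4.96 between treatments. *Klf4*, *Myc* and *Clec10a* were not called, at 0.41, 1.10 and −0.38. *Ch25h*, cholesterol 25-hydroxylase, was the member called higher, at means of 18.3 ± 3.77 and 3.11 ± 1.15 CPM (2.53), with opposite-strand exons over 50.3% of its length.

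Of 12 genes for the IL-4/IL-13 receptors, kinases, STAT6 and feedback regulators, 2 were called higher and 3 lower (7.80% and 11.3% of all genes), with a median of −0.16. *Il13ra1*, a receptor subunit, was at 44.6, 47.3, 48.5 and 40.8 CPM with tunicamycin and at 11.2, 10.8, 9.96 and 11.0 CPM with Sal003, a difference of 2.08 (adjusted *P* = 5.90e-17). *Il4ra* and *Stat6* were not called, at 0.76 and −0.74, and *Jak1* and *Jak3* were each at −0.06. The feedback genes split, in that *Socs1* was lower (means 4.16 ± 0.409 and 75.2 ± 6.14 CPM, −4.17), *Cish* was lower (1.86 ± 0.585 and 31.3 ± 5.87 CPM, −4.06, with opposite-strand exons over 26.3%) and *Socs3* was higher (40.9 ± 1.15 and 2.75 ± 0.664 CPM, 3.88). With Sal003 *Socs1* overlapped IL-4/IL-13 alone (54.0 to 70.6 CPM), and with tunicamycin it overlapped naive cells. *Irs2*, an adaptor of the receptor, was called lower at −3.03.

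Many inflammatory cytokine and chemokine genes were higher with tunicamycin. Of 19 genes 18 were tested, 11 were called higher and 0 lower (7.80% and 11.3% of all genes), with a median of 2.17. With at least 10 counts in every library 6 were called higher, and without mouse 1, 2 or 4 there was 1 called lower. *Il6* (ENSMUSG00000025746, chromosome 5, 30218112 to 30224979) was at 94.6, 112, 94.7 and 110 CPM with tunicamycin and at 0.571, 0.564, 0.283 and 0.721 CPM with Sal003. The level was 188-fold apart (7.56 ± 0.15, adjusted *P* = 4.75e-23), and IL-4/IL-13 alone was lower still, at 0 to 0.121 CPM. *Cxcl2*, a neutrophil chemokine, was at 105, 120, 104 and 124 CPM with tunicamycin and at 0.934, 2.14, 1.30 and 4.68 CPM with Sal003 (5.63), and its relative *Cxcl3* had means of 14.1 ± 3.06 and 0.348 ± 0.112 CPM (5.31). *Ccl3* differed by 5.20 and *Ptgs2*, cyclooxygenase 2, by 4.72. *Tnf* was not called at 1.28, *Il10* not at −0.14, and *Acod1*, which makes itaconate, not at −0.36, and for *Acod1* both drugs were called above IL-4/IL-13 alone, at 3.32 and 3.68.

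Interferon-stimulated genes showed the opposite arrangement. Of 25 genes, 1 was called higher and 22 lower with tunicamycin than with Sal003 (7.80% and 11.3% of all genes), with a median of −2.54. IL-4/IL-13 alone had called 23 of the 25 lower and 0 higher than naive cells (6.08% and 5.39% of all genes), with a median of −3.25. Sal003 called 23 of the 25 higher than IL-4/IL-13 alone and 0 lower (2.68% and 5.04% of all genes), with a median of 3.20. Tunicamycin called 5 higher and 1 lower (8.56% and 14.0% of all genes), with a median of 0.16. *Irf7* (ENSMUSG00000025498, chromosome 7, 140842619 to 140846398), a transcription factor of the interferon response, was at 25.7, 27.2, 23.7 and 28.1 CPM with tunicamycin and at 720, 850, 416 and 1186 CPM with Sal003. The tunicamycin values overlapped IL-4/IL-13 alone (28 to 39.0 CPM) and the Sal003 values spanned the naive range (457 to 580 CPM), with mouse 4 lowest and mouse 5 highest (−4.92 ± 0.31, adjusted *P* = 2.36e-13).

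*Oas3*, an antiviral oligoadenylate synthetase, was at 16.1, 17.4, 14.6 and 16.9 CPM with tunicamycin and at 773, 901, 526 and 1085 CPM with Sal003, with the same order of Sal003 mice. Here tunicamycin was also called lower than IL-4/IL-13 alone (69.5 to 89.0 CPM, −2.23), and the treatments differed by −5.66 ± 0.23 (adjusted *P* = 4.16e-17). *Oasl2* had means of 31.9 ± 1.49 and 642 ± 167 CPM, a difference of −4.33. In naive cells the means were 408 CPM for *Oas3* and 523 CPM for *Oasl2*. *Ifit1*, *Isg15* and *Rsad2* were above IL-4/IL-13 alone with both drugs, at 2.14, 2.25 and 1.97 for tunicamycin, and were lower with tunicamycin than with Sal003 at −2.54, −1.99 and −2.27. *Isg20*, an exonuclease, was the exception, at 31.8, 29.7, 33.0 and 31.9 CPM with tunicamycin and at 9.29, 10.9, 5.44 and 17.8 CPM with Sal003. It was called higher at 1.53 (adjusted *P* = 5.06e-06), and the call was lost, at 1.30, without mouse 4.

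**Figure D3:**
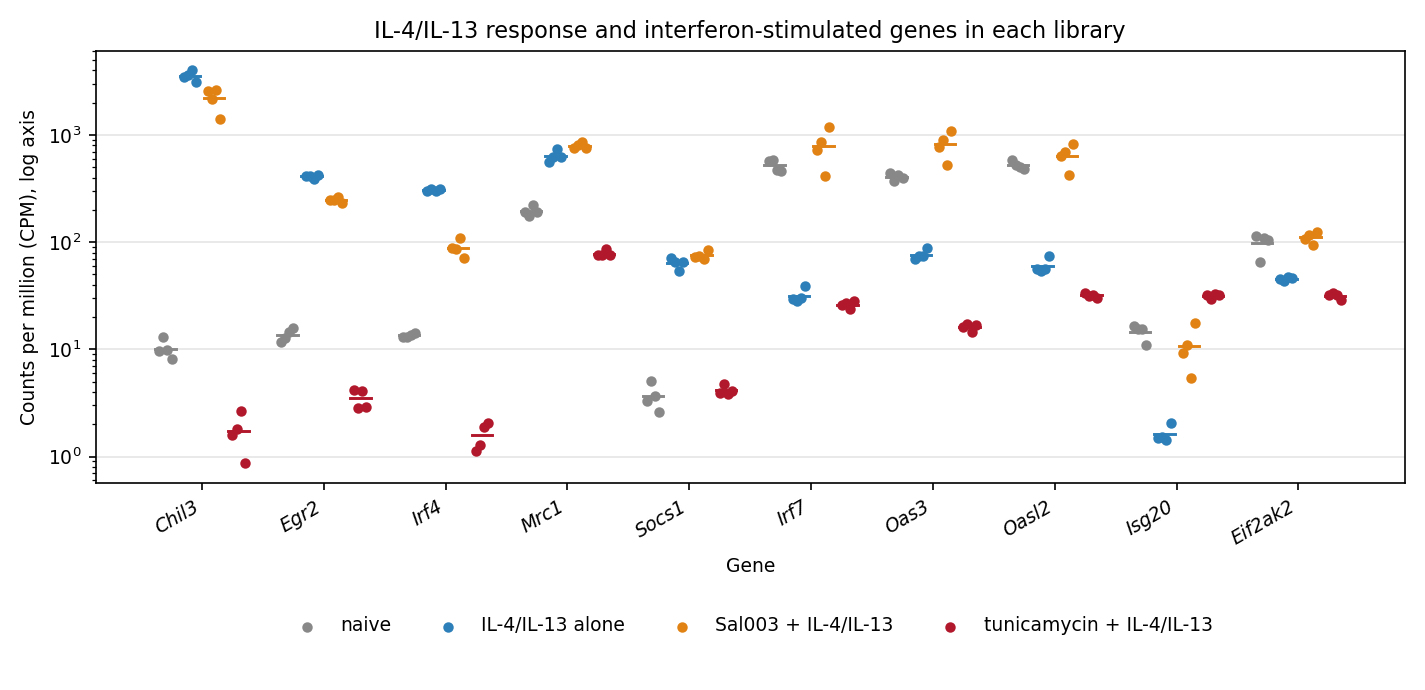
Levels of 10 genes in CPM on a log axis in naive macrophages, IL-4/IL-13 alone, Sal003 and tunicamycin, with points for mice 1, 2, 4 and 5 from left to right and a line at the mean. *Chil3* has means of 3559, 2187 and 1.73 CPM with IL-4/IL-13 alone, Sal003 and tunicamycin, and *Irf7* has means of 31.6, 793 and 26.2 CPM in the same order.

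Part of the lysosomal genes were lower with tunicamycin. Of 30 genes, 0 were called higher, 11 lower (11.3% of all genes) and 19 in neither direction, with a median of −0.98, and Sal003 had a median of 0.67 and tunicamycin of −0.52 against IL-4/IL-13 alone. *Npc2*, the luminal cholesterol carrier, was at 329, 320, 353 and 330 CPM with tunicamycin and at 2499, 2582, 2305 and 2747 CPM with Sal003. IL-4/IL-13 alone lay between the treatments, at 1139 to 1267 CPM, and the difference was −2.93 ± 0.077 (adjusted *P* = 6.14e-21). *Ctss*, cathepsin S, had means of 1502 ± 157 and 9909 ± 305 CPM (−2.72), and *Arsb*, arylsulfatase B, 8.10 ± 0.686 and 64.6 ± 7.37 CPM (−3.00). Cathepsins B, L and Z, encoded by *Ctsb*, *Ctsl* and *Ctsz*, were called lower at −2.62, −2.27 and −2.03, while *Ctsa* and *Ctsd* were not called at −0.45 and −0.55.

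Of 23 genes for cholesterol synthesis and uptake, 2 were called higher and 4 lower (7.80% and 11.3% of all genes), with a median of −0.37. *Dhcr7*, a late reductase, was at 10.5 to 13.4 CPM with tunicamycin and at 35.7 to 53.5 CPM with Sal003 (−1.92), and *Idi1*, an isomerase of the pathway, was lower at −2.11 with means of 0.466 ± 0.137 and 2.02 ± 0.524 CPM and 18.2% of its 32-base words shared with other genes. *Mvd* and *Sc5d* were higher at 1.46 and 1.5, with opposite-strand exons over 20.5% of *Mvd*. *Hmgcs1*, an early enzyme, was not called at −0.05.

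Genes of DNA replication and mitosis were low with both drugs. Of 25 genes, 1 was called higher and 4 lower with tunicamycin than with Sal003 (7.80% and 11.3% of all genes), with a median of −0.79. At 2-fold 9 were called lower (2024 of all 13679 genes), and without a fold minimum 15 (4925 of all genes). Against IL-4/IL-13 alone, tunicamycin called 23 and Sal003 21 of the 25 lower (14.0% and 5.04% of all genes), with medians of −2.97 and −2.29. *Pcna*, the replication clamp, was at 90.1, 90.5, 94.4 and 95.9 CPM with tunicamycin and at 351, 330, 340 and 310 CPM with Sal003. It was unlike most of the list in that Sal003 was not called against IL-4/IL-13 alone (366 to 389 CPM, −0.17) and the treatments differed by −1.84 (adjusted *P* = 4.15e-20). *Rrm2*, a ribonucleotide reductase subunit, had means of 1.11 ± 0.143 and 3.27 ± 0.717 CPM (−1.55) beside 47.0 CPM in IL-4/IL-13 alone. Opposite-strand exons cover 43.3% of *Rrm2* and 20.8% of *Pcna*, and *Pcna* shares 21.7% of its 32-base words with *Pcna-ps2*. *Tyms*, thymidylate synthase, was higher with tunicamycin at means of 14.9 ± 1.41 and 3.43 ± 0.491 CPM (2.12), and *Mki67* and *Top2a* were not called at −0.63 and 0.26.

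Of 13 protein-coding genes of mitochondrial DNA, 7 were tested, 0 were called higher and 2 lower (7.80% and 11.3% of all genes), with a median of 0.44. *mt-Nd1* was at 294, 414, 366 and 420 CPM with tunicamycin and at 849, 885, 1258 and 794 CPM with Sal003, and *mt-Nd2* was at 175, 242, 214 and 237 CPM and at 516, 521, 732 and 468 CPM. Both groups were separate, at −1.34 and −1.36, but each lies near the fold threshold and the calls were lost without mouse 1 (−1.25 and −1.27) or without mouse 4 (−1.16 and −1.20). *mt-Co1*, *mt-Nd5*, *mt-Cytb* and *mt-Nd4* leaned the other way without being called, at 0.77, 0.54, 0.53 and 0.44. For these 4, Sal003 was called lower than IL-4/IL-13 alone, at −1.36, −1.36, −1.77 and −1.53. *mt-Co2*, *mt-Co3*, *mt-Atp6* and *mt-Atp8* were at 0 in all 8 libraries and were not tested, for a reason that was not examined. Of the 32-base words of *mt-Nd2*, 12.9% are shared with other genes.

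The largest falls with tunicamycin relative to Sal003 were taken over all genes with 50 or more counts on average, listed or not. They took in *Retnla* and *Chil3* and 3 genes with no count in any tunicamycin library. *Galnt9*, a glycosyltransferase, was at 12.9, 10.8, 14.5 and 7.98 CPM with Sal003 and was at least 298-fold lower with tunicamycin. *Il31ra*, a cytokine receptor, was at 8.62, 8.46, 9.0 and 6.90 CPM with Sal003 and at least 213-fold lower, and *Kcnd3*, a potassium channel, at 7.99, 9.08, 6.45 and 6.18 CPM and at least 192-fold lower. These bounds take a floor of 3 counts over the group of 4 tunicamycin libraries.

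The largest rises were those of *Derl3* and of the 5 genes that follow. *Siglece*, an inhibitory sialic acid receptor, was at 254, 295, 289 and 290 CPM with tunicamycin and at 0.156, 0.395, 0.113 and 0.360 CPM with Sal003, beside 26.0 to 36.2 CPM in naive cells (10.07 ± 0.16, adjusted *P* = 6.99e-25), and opposite-strand exons cover 39.3% of it. *Lcn2*, which encodes the siderophore-binding lipocalin 2, was at 732, 933, 773 and 806 CPM with tunicamycin and at 1.66, 1.52, 1.70 and 3.45 CPM with Sal003 (8.59 ± 0.18, adjusted *P* = 6.40e-23). *Fpr1*, a formyl peptide receptor, had means of 73.6 ± 13.2 and 0.161 ± 0.0759 CPM (8.77). *1700003M07Rik* had 1 count over the Sal003 libraries and a mean of 47.1 ± 7.03 CPM with tunicamycin, a ratio of 3509 (95% counting interval 630 to 138598). *Zfp811* had 3 counts over the Sal003 libraries and a mean of 14.5 ± 0.726 CPM with tunicamycin, a ratio of 359 (123 to 1741).

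Some genes moved in opposite directions from IL-4/IL-13 alone, called in both comparisons. *Slc13a3* (ENSMUSG00000018459, chromosome 2, 165246948 to 165315268), a sodium-coupled dicarboxylate transporter, was at 253, 349, 330 and 283 CPM with tunicamycin, at 1.09, 0.902, 0.849 and 1.65 CPM with Sal003 and at 10.9 to 13.7 CPM with IL-4/IL-13 alone. The difference of *Slc13a3* between treatments was 8.06 ± 0.19 (adjusted *P* = 4.82e-22), and only *Derl3*, at 8.50, and *Zfp811* had larger rises of that kind. In the other direction, *Npy*, which encodes neuropeptide Y, was at 1.34, 0.952, 1.02 and 0.764 CPM with tunicamycin, at 66.5, 62.3, 59.8 and 70.2 CPM with Sal003 and at 14.6 to 21.2 CPM with IL-4/IL-13 alone (−5.98). *Pdgfc*, a growth factor, had means of 0.195 ± 0.104, 14.0 ± 1.07 and 4.88 CPM in the same order (−6.14). *Htra4*, a serine protease, had 2 counts over the tunicamycin libraries and a mean of 6.21 ± 1.41 CPM with Sal003, a ratio of 243 (95% counting interval 67.2 to 2006), and opposite-strand exons cover 38.0% of its length.

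For other genes Sal003 was called against IL-4/IL-13 alone and tunicamycin did not pass the test. Sal003 was lower for *Phlda1*, *Acy1* and *Ntng2*, at means of 0.992, 1.13 and 2.24 CPM beside 5.05, 5.62 and 10.9 CPM in IL-4/IL-13 alone, and tunicamycin was at 5.05, 5.66 and 11.3 CPM. Differences between treatments were 2.35, 2.31 and 2.34, with opposite-strand exons over 33.0% of *Phlda1* and same-strand exons of another gene over 14.1% of *Ntng2*. Sal003 was higher for *Ifi205*, *Ly6a* and *Ifi44*, which are interferon-inducible, at −3.23, −4.14 and −4.13 between treatments. Its means were 4.98, 56.8 and 105 CPM, beside naive means of 6.67, 69.9 and 64.6 CPM. Tunicamycin differed from IL-4/IL-13 alone by 2.04, 1.07 and 0.98 for these 3, and all its libraries were above all libraries of IL-4/IL-13 alone. *Ly6a* was at 50.4, 57.2, 27.6 and 92.1 CPM with Sal003 and at 3.39, 2.81, 3.86 and 2.95 CPM with tunicamycin, with Sal003 mouse 4 again lowest and mouse 5 highest. A tunicamycin value that missed the test is not shown to equal that of IL-4/IL-13 alone. *Ifi205* and *Ly6a* share 22.4% and 22.5% of their 32-base words with other genes.

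Some markers of other cell types differed between treatments, where 7.80% of all genes were called higher and 11.3% lower. Of 10 neutrophil markers 7 were tested, 0 were called higher and 5 lower with tunicamycin, with a median of −4.05. Their sum was 0.154, 0.333, 0.170 and 0.255 CPM with tunicamycin and 5.19, 5.75, 8.44 and 8.60 CPM with Sal003, beside 24.4 to 45.4 CPM with IL-4/IL-13 alone. Over each group, the most abundant was *S100a9* with Sal003 and *S100a8* with tunicamycin, but *S100a8* was at 0 in tunicamycin mouse 4. *Ly6g* was at 0 in all tunicamycin libraries and at 0.0515 CPM or less with Sal003. Of 7 dendritic cell markers 5 were tested, 0 were called higher and 3 lower (median −1.49), and the sum was 1.95, 2.14, 1.64 and 2.5 CPM with tunicamycin and 3.11, 3.72, 4.08 and 4.22 CPM with Sal003. Of 5 endothelial markers 3 were tested, 1 was called higher and 2 lower (median −1.63). Their sum, mostly *Vwf*, was 65.7, 52.5, 68.8 and 56.7 CPM with tunicamycin and 264, 254, 303 and 227 CPM with Sal003, while the defining *Cdh5* and *Tek* were at 0.428 CPM or less in the 8 libraries. The part of such cells in the results was not tested.

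Of 8 erythroid and platelet markers 2 were tested and both were called higher, *Pf4* and *Ppbp*, with a median of 2.5. Their list summed to 49.4, 58.9, 48.7 and 59.9 CPM with tunicamycin and to 8.98, 9.19, 9.0 and 7.93 CPM with Sal003, almost all from *Pf4*, and globin genes were at 0 in all 8 libraries. Of 10 lymphocyte markers only *Cd79b* was tested and was called higher at 2.57. That list summed to 2.36, 3.28, 2.33 and 2.5 CPM with tunicamycin and to 1.04, 0.733, 0.340 and 0.772 CPM with Sal003, and *Cd3d*, *Ncr1* and *Nkg7* were at 0. Of 8 fibroblast markers 7 were tested, 0 were called higher and 1 lower, *Cxcl12*, with a median of −0.79. Their sum, with *Col1a2* the most abundant, was 26.7, 16.6, 20.1 and 4.13 CPM with tunicamycin and 52.5, 31.7, 34.3 and 8.80 CPM with Sal003, lowest in mouse 5 in both. None of 6 mast cell and basophil markers was tested, and their sum stayed at or below 0.408 CPM in the 8 libraries. Whether these transcripts come from other cells or from the macrophages was not tested.

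Mice differed slightly more under Sal003 than under tunicamycin over genes at large. The median SD of log2 CPM over the 4 mice was 0.0860 with tunicamycin and 0.101 with Sal003, beside 0.0963 with IL-4/IL-13 alone. In naive cells, which define the induced and repressed genes, it was 0.174, and 0.10 without mouse 2. Agreement within tunicamycin was close for *Ddit3* (600 ± 8.68 CPM) and *Atf4* (1094 ± 19.5 CPM), whereas Sal003 gave 63.4 ± 13.9 and 206 ± 30.8 CPM. Other genes had the relatively wider spread with tunicamycin. *Hspa5* was at 12367 ± 782 CPM with tunicamycin and 1130 ± 18.6 CPM with Sal003, and *Ctss* at 1502 ± 157 and 9909 ± 305 CPM. Under Sal003, *Irf7* was at 793 ± 319, *Ly6a* at 56.8 ± 26.7, *Retnla* at 155 ± 78.9 and *Cxcl2* at 2.27 ± 1.69 CPM.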

How the data were processed

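Gene counts were used as deposited. The authors trimmed reads with cutadapt 1.8, aligned them with STAR 2.7 (GRCm39) and obtained the counts from HTSeq 0.9.1, per their processing notes and methods. The strand setting of the counting was not stated in the sources used here. A table of TPM values (RSEM 1.2.31) and the oligomycin libraries' comparisons were not used here. Groups and mouse numbers came from the sample titles. Of 56884 genes in the table, 56323 were found in the GRCm39 annotation used for coordinates. Entries that name no gene held 13.14% to 14.42% of reads in the 8 libraries and were left out of library sizes.

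Counts of all 24 libraries were fitted with edgeR 4.0.16 and limma 3.58.1 in R 4.3.3 (TMM, filterByExpr by group, glmQLFit and glmQLFTest, 1 coefficient per group, no replicate block). *P* values were adjusted by Benjamini-Hochberg over the 13679 genes tested. SE was derived from the quasi-likelihood F statistic. The steps were tested on simulated data. Replicate libraries of a treatment differed by more than sampling noise in each pair, with a chi-square per gene of 2.297 or more. The same mice gave both treatments, and deviations from the group mean correlated at 0.17, 0.139, 0.164 and 0.317 for the same mouse and at 0.0746 or less for different mice.

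The members, the 23 gene lists and the 8 cell marker lists were chosen with earlier results of these data known. Genes were named when on a list of 16 genes for both pathways, when among the 6 largest rises or falls that held their sign in each mouse with 50 or more counts on average, when among the 3 largest called differences of a gene list or called against its direction, when among the 3 largest that both drugs moved in opposite directions, or when among the 3 largest that moved with Sal003 alone. Other genes in the text are list members, chosen after their values were seen. Some genes that these rules or lists hold are not reported here. Gene overlap was taken from annotated exons, and near-identical sequence from 32-base words shared with other genes. Promoters came from RefSeq GRCm38.p6. Alternatives were DESeq2 1.42.0, other normalizations, filters and fold thresholds, the 8 libraries alone, a replicate block and leaving out each mouse. Those for the comparisons with IL-4/IL-13 alone, and leaving out mice for the spread, were added after seeing the data.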

Additional observations from a re-analysis of the deposited data

Results flagged for a closer look

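In a treatment's 4 libraries, the gap of the highest or lowest library to its nearest neighbor was divided by the range. Values above the usual 5% limit for 4 values are given here, and 10 of 208 groups examined (4.81%) passed, where chance gives about 1 in 20. By mouse, 2 were in mouse 1, 2 in mouse 2, 2 in mouse 4 and 4 in mouse 5. With tunicamycin, *Herpud1* was high in mouse 2 (1196 CPM, 0.857), *Mrc1* was high in mouse 4 (85.9 CPM, 0.880) and *Siglece* was low in mouse 1 (254 CPM, 0.854). *Retnla* in mouse 2 (0.0476 CPM) and *Htra4* in mouse 5 (0.102 CPM) were the only libraries above 0 with tunicamycin, each at 1.00, and *1700003M07Rik* in mouse 1 (0.0519 CPM) was the only Sal003 library above 0, also at 1.00. With Sal003, *Lcn2* (3.45 CPM, 0.907) and *Cxcl3* (0.515 CPM, 0.876) were high in mouse 5. The summed macrophage markers with Sal003 were high in mouse 4 (17338 CPM, 0.948) and the summed erythroid markers low in mouse 5 (7.93 CPM, 0.833).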

How the results depend on the processing

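Of the 95 genes chosen by rule, none reversed under another tool, normalization, filter or set of libraries, and 77 of them were tested with at least 10 counts in every library. Other genes in the text were not followed one by one. Requiring 10 counts in every library compared left 11277 genes, of which 678 were called higher and 884 lower with tunicamycin than with Sal003, because genes near 0 in 1 treatment were no longer tested. Under it, 25 induced genes were called higher and 171 lower, 131 repressed genes higher and 129 lower, 778 genes higher and 1058 lower for tunicamycin against IL-4/IL-13 alone, and 241 higher and 286 lower for Sal003. With no minimum fold, 4909 genes were higher and 4925 lower, with 84 induced genes higher and 525 lower, and 230 list members higher and 147 lower, beside 119 and 70 at 2.5-fold. Without a minimum fold, tunicamycin against IL-4/IL-13 alone gave 5287 and 5150, and Sal003 3548 and 3369. With a replicate block for the mouse, 1071 were called higher and 1566 lower, and the block changed no call of a named gene. Leaving out each mouse gave 1074 to 1142 higher and 1494 to 1526 lower. The median SD then ran from 0.0772 to 0.0847 with tunicamycin and from 0.0868 to 0.103 with Sal003, and the cause was not tested. DESeq2 called 1068 higher and 1563 lower. Over the whole 300-base promoter entry, which is longer, the C/EBP-ATF element was in 2.88% of promoters and in 5.83% of those of genes called higher. Of 22 IL-4/IL-13 markers, 2 were called higher without a count filter. The list counts that changed most in proportion with the 10-count filter or with a mouse left out are given with their results. Smaller changes are not given there. For example, 20 translocon genes were called higher without mouse 1, beside 16 with all mice. With the 10-count filter, 8 amino acid synthesis genes were called higher, beside 10 without it.

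Of 95 named genes, *mt-Nd1* (−1.30) also lost its call without a count filter. A gene with 0 counts in 4 libraries can still have up to 3, so falls to 0 are bounds. Genes with few counts, overlapping or near-identical genes, and the deposited counting without a stated strand limit the values named above. The 4 mice, 1 library each, limit every spread.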
